A study of Mus musculus with 6 samples.

Results

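Chromatin accessibility at 9 genes of lymphocyte homing and recirculation (Ccr7, Ccr6, Cxcr3, Cxcr4, Cxcr5, S1pr1, S1pr4, Klf2 and Itgb7) was compared between normoxic control mice and mice that had returned from simulated high altitude, a state called HADA (high-altitude de-acclimatization). The genes were chosen by name, and a region was given to a gene when the summit of an ATAC-seq peak lay in the gene body or within 3 kb of one of its starts. This gave 29 regions out of 62876 regions in the union of all libraries. The libraries were made from unsorted white cells of peripheral blood after lysis of red cells, with 3 libraries from control mice and 3 from HADA mice. All mice were male C57BL/6j animals, 8 weeks old at purchase, with no altered allele named. HADA mice spent 28 days in a hypobaric chamber set to a simulated altitude of 6000 m and were then returned to normal oxygen, whereas control mice stayed in normal oxygen throughout. The day after return on which blood was taken for these libraries was not given in the sources used here.

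Naive lymphocytes circulate between blood, lymph nodes and lymph. Adhesion molecules and chemokine receptors bring them across the vessel wall into a node, chemokine receptors then place them in the T cell zone or the B cell follicle, and sphingosine 1-phosphate receptors guide them back out into the lymph. KLF2 is a transcription factor that maintains this circulating state and drives the sphingosine 1-phosphate receptor S1PR1. In blood, neutrophils and monocytes also carry some of these receptors, CXCR4 in particular. An ATAC-seq peak marks DNA that is open to the transposase, such as an active start or enhancer, and does not measure RNA or protein.

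Peak height was measured as the summit pileup, the number of sequenced reads or fragments that overlap at the highest point of a peak. Since libraries differ in depth and in signal, heights were expressed relative to the median shared region of each library, a shared region being one with a peak in all 6 libraries. A change in a mixed sample may come from another share of a cell type or from another accessibility per cell, and these cannot be told apart. The control lists held 34045 to 41475 peaks and the HADA lists 44044 to 45799, the background pileup was 1.69 to 2.05 and 1.99 to 2.34, and the median shared region had a pileup of 49 to 58 and 77 to 92. Control 3 stood apart from the other libraries, with the fewest peaks, the least signal at B cell marker genes and the most at neutrophil marker genes, and values without it are given beside many of the results.

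Of the 29 regions, 15 were shared, where 38.1% of all regions were, 8 had a peak in 3 to 5 libraries and 6 had a peak in 1 library. Among the 15 shared regions, 8 were higher in HADA, 1 was lower and 6 did not pass the test (limma, Benjamini-Hochberg adjustment over all 23970 shared regions), while over all shared regions 18.4% were higher and 24.5% lower. The median log2 difference of the 15 regions was 0.47, against -0.04 over all shared regions. In 10 of the 15 every HADA library lay above every control library and in 3 every HADA library lay below, with 29.3% and 31.2% of all shared regions in these states. Measured over the library background instead, which adds the same 0.38 (log2) to the difference of every shared region, the median was 0.85 against 0.34 over all shared regions, and 10 regions were higher and 0 lower (limma, also 10 and 0 at an unadjusted p under 0.05), where 32.2% and 17.6% of all shared regions were called. On that scale 10 regions lay above all control libraries in every HADA library and 0 lay below, against 42.6% and 17.4%. Ranked by the fold enrichment of the deposited lists, which is taken over the local background, 2 regions were higher and 0 lower (limma, 4 and 0 at an unadjusted p under 0.05), against 7.64% and 5.82% of all shared regions. The count of 8 was 10 of 18 shared regions without control 3, where 19.9% of all shared regions were higher. It was 4 of 15 without HADA 2, where 5.60% of all shared regions were higher and 7 of the 15 were higher at an unadjusted p under 0.05. The number of peaks at the 9 genes overlapped between the groups, at 21.7 ± 1.15 in control and 22.0 ± 1.00 in HADA libraries (SD, n = 3 each). With equal numbers of peaks taken from every library they did not overlap, at 21 in each control library against 19 to 20 in HADA.

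**Figure D1:**
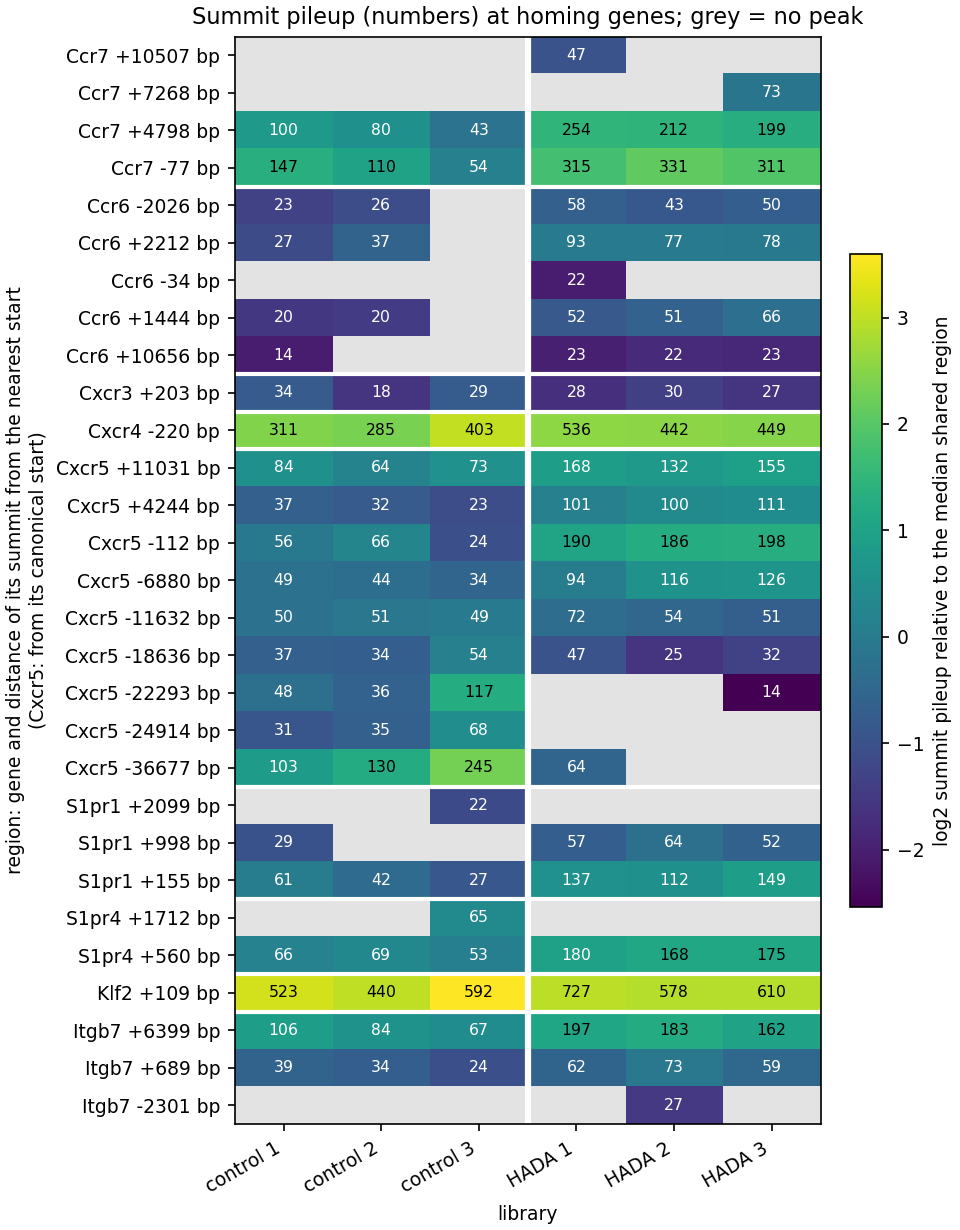
Summit pileup (numbers) of the 29 regions (vertical axis, gene and distance in bp of the summit from a start) in the 6 libraries (horizontal axis), coloured by the log2 level relative to the median shared region of the library, with grey for no peak. Klf2 and Cxcr4 have the tallest peaks in every library, Ccr6 has no peak in control 3, and peaks of 3 upstream Cxcr5 regions are present in all control libraries and mostly missing in HADA libraries.

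Sequences are shown for the regions on which the results below turn, as 200 bases of GRCm39 read on the strand of the gene from 5′ to 3′. Capitals mark matches to 11 short binding motifs searched on both strands, and these motifs were chosen after the heights had been seen. All but the S1pr1 window contain the summit, and the S1pr1 window is the stretch just before the gene, 256 bp from the summit between their centres. The first is the intronic Ccr7 region that was higher in HADA, and the Ccr6 window is an intron region with no peak in control 3. The next lines set a Cxcr5 region that was higher in HADA beside 2 upstream Cxcr5 regions that were lower, and the last are the higher regions of S1pr1 and Itgb7.
Ccr7 intron, chr11:99041013-99041212: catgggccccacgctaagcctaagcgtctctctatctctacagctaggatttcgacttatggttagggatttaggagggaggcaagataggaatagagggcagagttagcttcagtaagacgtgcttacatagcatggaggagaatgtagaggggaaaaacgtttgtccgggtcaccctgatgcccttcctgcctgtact
Ccr6 intron, chr17:8465241-8465440: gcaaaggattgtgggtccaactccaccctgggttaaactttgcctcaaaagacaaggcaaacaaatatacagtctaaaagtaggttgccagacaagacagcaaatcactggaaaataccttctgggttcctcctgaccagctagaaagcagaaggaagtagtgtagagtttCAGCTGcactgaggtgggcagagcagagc
Cxcr5 intron, higher in HADA, chr9:44433393-44433592: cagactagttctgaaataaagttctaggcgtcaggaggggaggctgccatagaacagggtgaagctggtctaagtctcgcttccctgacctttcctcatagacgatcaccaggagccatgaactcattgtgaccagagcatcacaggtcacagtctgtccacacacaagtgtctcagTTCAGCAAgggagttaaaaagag
Cxcr5 upstream, control only, chr9:44462551-44462750: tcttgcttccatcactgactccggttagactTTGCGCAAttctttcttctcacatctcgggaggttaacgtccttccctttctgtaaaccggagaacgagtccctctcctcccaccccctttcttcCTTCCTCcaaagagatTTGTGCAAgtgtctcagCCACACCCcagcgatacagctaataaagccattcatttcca
Cxcr5 far upstream, lower in HADA, chr9:44474314-44474513: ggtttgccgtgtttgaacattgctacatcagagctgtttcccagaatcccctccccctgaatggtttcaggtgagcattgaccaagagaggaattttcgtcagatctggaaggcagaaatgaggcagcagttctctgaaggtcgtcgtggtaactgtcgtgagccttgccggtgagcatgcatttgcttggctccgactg
S1pr1 before the start, chr3:115508722-115508921: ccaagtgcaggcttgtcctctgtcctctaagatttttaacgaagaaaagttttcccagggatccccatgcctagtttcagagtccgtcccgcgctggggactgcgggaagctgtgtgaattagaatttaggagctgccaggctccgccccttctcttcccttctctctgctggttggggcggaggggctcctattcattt
Itgb7 intron, chr15:102133746-102133945: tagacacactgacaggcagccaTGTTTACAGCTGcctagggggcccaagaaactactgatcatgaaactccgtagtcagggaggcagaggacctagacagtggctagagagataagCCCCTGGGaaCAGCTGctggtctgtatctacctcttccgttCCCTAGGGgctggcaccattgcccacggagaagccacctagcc

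The Cxcr5 window seen only in control libraries held 2 matches to the C/EBP motif TTGCNNAA, 1 to the PU.1 motif GAGGAAG and 1 to the KLF motif CCACACCC. The Itgb7 window held 1 match to the FOXO motif TGTTTAC, 2 to the E2A motif CAGCTG and 2 to the EBF motif CCCNNGGG, the first FOXO and E2A matches sharing bases. Around the summits of all shared regions, windows of the same length held these letters in 7.55% (C/EBP), 11.7% (PU.1), 2.36% (KLF), 2.24% (FOXO), 11.5% (E2A) and 9.99% (EBF) of cases. Among the 29 member windows, C/EBP letters were in 5, all of them at Cxcr5 or S1pr1, PU.1 letters in 5, KLF, E2A and EBF letters in 3 each and FOXO letters in 1. The RUNX motif TGTGGTT was in 3 and the AP-1 motif TGANTCA in 2, against 5.84% and 4.63% of shared regions. The GC box GGGCGGG, the ETS motif CCGGAAG and the NF-kB motif were in 0 of the 29 windows, against 16.2%, 6.81% and 1.42% of shared regions. The 50 bases at each of the 29 summits occurred at 1 place in the genome.

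Ccr7 encodes the receptor for CCL19 and CCL21 that leads naive T cells, B cells and dendritic cells into lymph nodes, and both of its shared regions were higher in HADA. At its start (chr11:99045320-99046387, summit 77 bp upstream) the pileup was 147, 110 and 54 in control 1, 2 and 3 and 315, 331 and 311 in HADA 1, 2 and 3. The groups did not overlap, and control 3 was the lowest. Relative to the median shared region the difference was 1.11 ± 0.27 on the log2 scale (SE), a 2.16-fold higher level, with an adjusted p of 0.0136 (limma, Benjamini-Hochberg). In the intron region (chr11:99040724-99041510) the pileup was 100, 80 and 43 in control libraries against 254, 212 and 199 in HADA, again without overlap and with the lowest value in control 3. Its log2 difference was 1.03 ± 0.24 and its limma adjusted p 0.0112. Without control 3 the log2 differences were 0.72 at the start and 0.69 in the intron, both still called. Without HADA 2 they were 1.05 and 1.02 and not called (limma adjusted p of 0.0599 and 0.0511), nor was either called on the fold ranks (limma adjusted p of 0.404 and 0.443). An intron peak of HADA 3 with a pileup of 73 and a peak of HADA 1 in an untranslated exon with a pileup of 47 were seen in no other library.

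Ccr6, the receptor for CCL20 found on B cells and on subsets of effector and memory T cells, had 5 regions and none of them was shared, since control 3 had no peak at the gene. In the intron region whose sequence is given above (chr17:8465047-8465788) the pileup was 20 and 20 in control 1 and 2 and 52, 51 and 66 in HADA libraries. A second intron region (chr17:8456294-8457468) had 27 and 37 in control 1 and 2 against 93, 77 and 78 in HADA libraries. All HADA values lay above both control values in these regions. The region upstream of the first start (chr17:8452471-8453652) had 23 and 26 against 58, 43 and 50, and the region in the last part of the gene had 14 in control 1 only against 23, 22 and 23. A peak of 22 in HADA 1 alone made up the fifth region.

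Where a library lacked a peak, its value was set to the lowest pileup called in that library (a pileup of 7 to 9), and differences were computed over all regions with a peak in at least 3 libraries. Each of the 8 partly shared member regions had met that minimum through the group in which it was taller, 5 through HADA and 3 through control, and the other group was then partly or wholly filled in. The differences of these regions are therefore a description of the values and no test of the groups. For the same reason nothing was read from the calls of this fit, which were 3 higher and 3 lower among the 8 regions, beside 30.3% and 22.9% of all 20043 partly shared regions (limma, Benjamini-Hochberg). At Ccr6 the log2 differences so obtained were 1.30 and 1.42 in the intron regions named first, 0.94 in the upstream region and 0.61 in the last region. Without control 3, the library that lacked all of these peaks, they were 0.88, 0.77, 0.42 and 0.49, and over the library background 1.68, 1.80, 1.32 and 0.99.

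Cxcr5, the receptor for CXCL13 that takes B cells and follicular helper T cells into the follicle, had 9 regions, the most of any member, and they did not move in 1 direction. The gene lies on the minus strand, its canonical transcript begins at position 44437737 of chromosome 9, and longer annotated transcripts begin at 44467688 and 44473174. Distances below are from the canonical start. At that start (chr9:44437188-44438406) the pileup was 56, 66 and 24 in control libraries against 190, 186 and 198 in HADA. The groups did not overlap, the lowest value again being control 3. The log2 difference was 1.48 ± 0.30, a 2.78-fold higher level in HADA (limma adjusted p = 0.00795), and it was 1.05 without control 3. Of all shared member regions this had the largest difference.

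The Cxcr5 intron region 4244 bp downstream had pileups of 37, 32 and 23 against 101, 100 and 111, with a log2 difference of 1.16 ± 0.20 (limma adjusted p = 0.00637). A region 6880 bp upstream had 49, 44 and 34 against 94, 116 and 126, with a difference of 0.78 ± 0.21 (limma adjusted p = 0.0187). Neither overlapped between groups. The second call was lost without HADA 2 (0.71, limma adjusted p = 0.0860) and without HADA 3 (0.70, limma adjusted p = 0.0783). Without control 3 the differences of these regions were 0.99 and 0.65, both called. The region 11031 bp downstream also did not overlap, at 84, 64 and 73 against 168, 132 and 155, but its difference of 0.42 ± 0.16 did not pass the test (limma adjusted p = 0.0617). It was called over the library background, at 0.80 (limma adjusted p = 0.0140), and without control 3, at 0.43 (limma adjusted p = 0.0384).

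Farther upstream, the order of the groups was the opposite. In the region 24914 bp upstream (chr9:44462461-44463090), in an intron of the longer transcripts, the pileup was 31, 35 and 68 in control libraries, and no HADA library had a peak. This was the 1 control-only region of the 29, against 1.88% of all regions, and 0 of the 29 were HADA-only, against 7.01% of all regions. In the intron region 22293 bp upstream the control pileups were 48, 36 and 117, and a peak of 14 was called in HADA 3 alone. The region 36677 bp upstream (chr9:44473606-44474721), which lies 1240 bp before the farthest start, had 103, 130 and 245 in control libraries and a peak of 64 in HADA 1 alone. In all 3 regions control 3 was the tallest.

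With missing peaks at the lowest called pileup, the log2 differences of these 3 regions were -2.96 (24914 bp upstream), -3.17 (22293 bp) and -3.84 (36677 bp), given as a description only since most HADA values were filled in. Without control 3 the regions 22293 and 36677 bp upstream were at -2.66 and -3.46, and the control-only region then had too few peaks to enter the fit. Between them and the start, the region 18636 bp upstream had 37, 34 and 54 against 47, 25 and 32, which gave -0.91 ± 0.29 relative to the median shared region (limma adjusted p = 0.0338) and no overlap on that scale. Over the library background the groups overlapped there and the difference was -0.53 (limma adjusted p = 0.164), and on the fold ranks its sign turned, to 0.75 (limma adjusted p = 0.0690). Without control 3 it was -0.69 and still called, but the call was lost without HADA 2 (-0.74, limma adjusted p = 0.134) and without HADA 3 (-0.87, limma adjusted p = 0.0985). The region 11632 bp upstream had 50, 51 and 49 against 72, 54 and 51, with a difference of -0.40 ± 0.19 that did not pass the test (limma adjusted p = 0.109) and was -0.40 also without control 3.

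**Figure D2:**
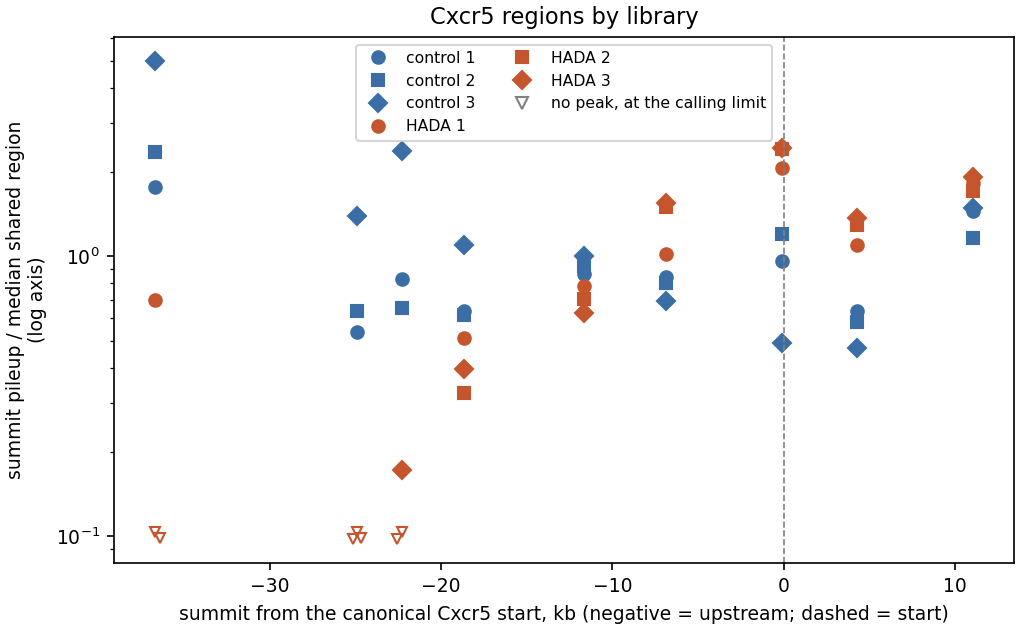
Summit pileup relative to the median shared region (log axis) of the 9 Cxcr5 regions in each library, by distance in kb of the summit from the canonical start (dashed line), with open triangles at the calling limit where a library had no peak. HADA libraries (orange) lie above control libraries (blue) from the region 6880 bp upstream to the one 11031 bp downstream of the start, and below them from the region 11632 bp upstream outward.

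Cxcr3 binds CXCL9, CXCL10 and CXCL11 and directs effector T cells and NK cells into inflamed tissue. Its 1 region (chrX:100777116-100778051), at the start, had pileups of 34, 18 and 29 in control libraries against 28, 30 and 27 in HADA. The groups overlapped. The log2 difference was -0.51 ± 0.29, with a 95% interval of -1.16 to 0.15 (limma adjusted p = 0.179). Over the library background it was -0.13 and without control 3 it was -0.41, and it was called without control 2, at -0.79 (limma adjusted p = 0.0325).

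Cxcr4, the receptor for CXCL12 that holds neutrophils and progenitors in the marrow and is carried by most blood leukocytes, had 1 tall region at its start (chr1:128518544-128520934). Its pileup was 311, 285 and 403 in control libraries against 536, 442 and 449 in HADA, which is 5.36, 5.18 and 8.22 times the median shared region in control and 5.83, 5.74 and 5.54 times in HADA. Relative to that median the groups overlapped, with the highest value in control 3. The log2 difference was -0.10 ± 0.19, with a 95% interval of -0.53 to 0.32 (limma adjusted p = 0.685), and its sign turned over the library background, at 0.28, and without control 3, at 0.06, with no call in either.

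Both sphingosine 1-phosphate receptors among the members had a higher region in HADA. S1pr1, which lymphocytes need to leave lymph nodes and thymus, had pileups of 61, 42 and 27 in control libraries against 137, 112 and 149 in HADA at its start (chr3:115508226-115509958). The groups did not overlap and control 3 was the lowest. The log2 difference was 1.06 ± 0.25, a 2.08-fold higher level (limma adjusted p = 0.0115), and it was 0.77 without control 3 and still called. In the coding exon, 998 bp from a start, only control 1 of the control libraries had a peak, with a pileup of 29, against 57, 64 and 52 in HADA. With the missing peaks filled in as above, its log2 difference was 1.60, and 1.31 without control 3. Another region, in an untranslated exon, was a peak of 22 in control 3 alone.

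S1pr4, a receptor of the same lipid that is largely restricted to blood and lymphoid cells, had pileups of 66, 69 and 53 in control libraries against 180, 168 and 175 in HADA in its coding exon (chr10:81334922-81335811). The libraries of each group lay close together and far from the other group. The log2 difference was 0.86 ± 0.15, a 1.81-fold higher level (limma adjusted p = 0.00637). This was 1 of the 2 member regions that were also called on the fold ranks, with a difference of 1.73 in normal scores (limma adjusted p = 0.0216), the other being the Cxcr5 region 6880 bp upstream (0.97, limma adjusted p = 0.0386). The S1pr4 region kept its call under all 11 alternatives in which it had a value, with 0.76 without control 3. A peak of 65 in control 3 alone lay in the untranslated end of the gene and within 3 kb of a start of the neighbouring gene Ncln.

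Klf2 had the tallest region of all members (chr8:73072424-73073836), on its first coding exon and inside the annotated body of Eps15l1, with pileups of 523, 440 and 592 in control libraries against 727, 578 and 610 in HADA. These were 9.02, 8.0 and 12.1 times the median shared region in control and 7.90, 7.51 and 7.53 times in HADA, so that on this scale every HADA library lay below every control library. The log2 difference was -0.32 ± 0.17, with a 95% interval of -0.71 to 0.07, and did not pass the test (limma adjusted p = 0.159). Over the library background the groups overlapped and the difference was 0.06 (limma adjusted p = 0.837), and on the fold ranks it was 0.22. Without control 3 the difference was -0.20.

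Itgb7 encodes the integrin subunit that pairs with integrin alpha 4 to bind MAdCAM-1 on gut vessels, or with integrin alpha E on epithelial T cells. Its intron region (chr15:102132838-102134180) had pileups of 106, 84 and 67 in control libraries against 197, 183 and 162 in HADA. The groups did not overlap, and the log2 difference was 0.47 ± 0.16 (limma adjusted p = 0.0437). This was the least stable of the higher calls, since it was lost in 9 of 12 alternatives, including the fit without control 3 (0.32, limma adjusted p = 0.0924). The region near its starts (chr15:102139211-102140781) had 39, 34 and 24 against 62, 73 and 59, without overlap relative to the median shared region, and its difference of 0.40 ± 0.23 did not pass the test (limma adjusted p = 0.180). It was 0.21 without control 3, and over the library background it was 0.78 and called (limma adjusted p = 0.0358). A peak of 27 upstream of the gene was seen in HADA 2 alone.

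**Figure D3:**
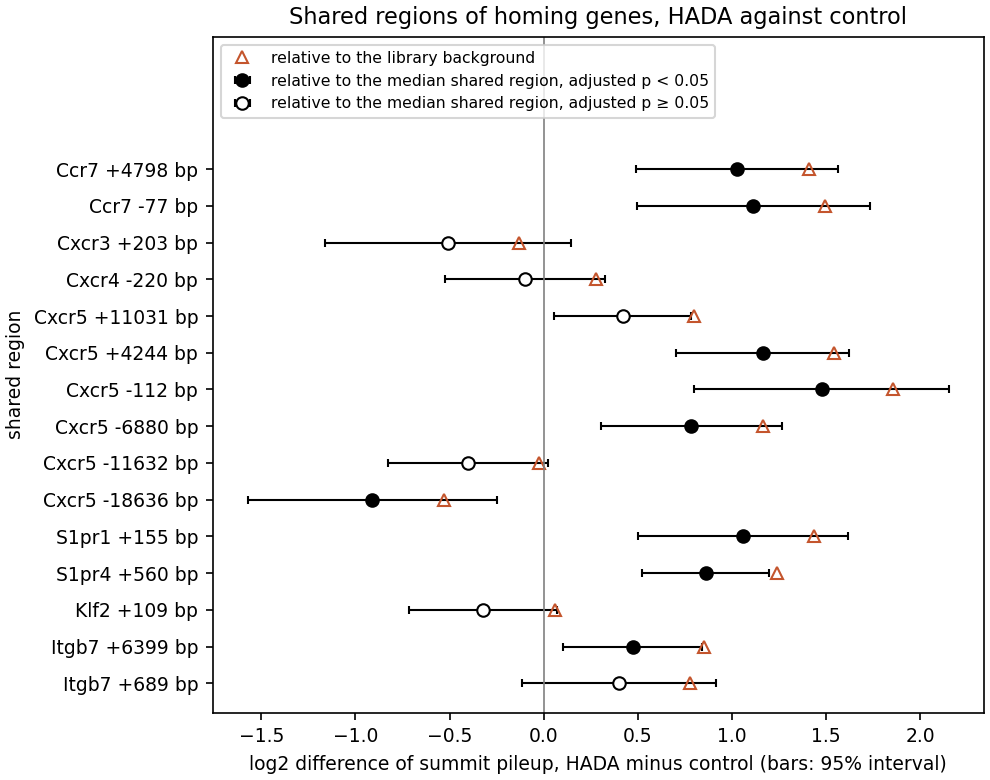
Log2 difference of summit pileup, HADA minus control (horizontal axis), for the 15 shared regions (vertical axis), with circles and 95% intervals relative to the median shared region, filled where the limma adjusted p was under 0.05, and triangles relative to the library background. The 8 filled circles on the right belong to Ccr7, Cxcr5, S1pr1, S1pr4 and Itgb7, the 1 on the left is a Cxcr5 region, and every triangle lies to the right of its circle.

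A sum of pileups over all regions of a gene moves with the number of peaks called, since a missing peak enters as 0, and is no fold change of fixed positions. Cxcr5 had 9 peaks in each control library against 7, 6 and 7 in HADA, and Ccr7 had 2 in each control library against 3, 2 and 3. The sum was higher in HADA for 2 of the 8 members that had a peak in every library and lower for 1, where 12.7% and 17.1% of 12599 protein-coding genes were higher and lower (limma, Benjamini-Hochberg). The Ccr7 sum was higher by 1.05 ± 0.27 (log2, limma adjusted p = 0.0287) and S1pr1 by 0.98 ± 0.23 (limma adjusted p = 0.0250), while the sum of Klf2, which is its single region, was -0.46 ± 0.14 relative to the median gene (limma adjusted p = 0.0448) and 0.06 over the library background, a scaling that adds 0.51 to every sum. The sum of Cxcr5 was -0.46 ± 0.18 (limma adjusted p = 0.0851), while its regions went both ways. Cxcr3, Cxcr4, S1pr4 and Itgb7 gave -0.64, -0.24, 0.34 and 0.26 with limma adjusted p-values of 0.107, 0.280, 0.330 and 0.178. Leaving out any 1 HADA library left 0 sums higher and 0 lower (limma, 2 and 1 at an unadjusted p under 0.05). Without control 3, where Ccr6 entered as the ninth gene, the higher sums were Ccr7, S1pr1, S1pr4 and Ccr6, and the lower ones Klf2 and Cxcr5 (-0.26, limma adjusted p = 0.0462). The share of all genes called in that fit is not given here, so these calls have no measure beside them.

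Within 25 kb of the members, outside the windows above, lay 58 further regions, of which 30 were shared, 8 of them higher and 10 lower in HADA (limma, Benjamini-Hochberg), beside 18.4% and 24.5% of all shared regions. Of the 58, 4 were HADA-only, beside 7.01% of all regions. Without HADA 2, 2 of the 30 were called higher and 2 lower, beside 5.60% and 12% of all shared regions in that fit. Without HADA 3 these were 5 and 3, beside 8.31% and 16.6%, and without control 3 they were 8 and 11, beside 19.9% and 23.4%. The neighbourhood of Cxcr4 held changes in both directions while its start did not pass the test. A region 15898 bp upstream of Cxcr4 rose from 102, 78 and 42 to 317, 256 and 293 (log2 difference 1.43, limma adjusted p = 0.00629), and one 21883 bp downstream of the start fell from 132, 133 and 192 to 97, 59 and 46 (-1.85, limma adjusted p = 0.00628). Both were without overlap. Around Ccr7, 3 of 4 shared flanking regions were higher, by 1.12, 0.96 and 0.78, which became 0.71, 0.58 and 0.56 without control 3. None of the 3 was called without HADA 2 (limma adjusted p of 0.0644, 0.0838 and 0.0585), and 1 was called without HADA 3. Beyond the far end of Cxcr5, regions 9329 and 11616 bp before the farthest start had peaks of 148, 117 and 143 and of 61, 46 and 55 in HADA libraries and none in control libraries, and between these and the farthest start a region 6092 bp before it had 299, 285 and 642 in control libraries against 344, 201 and 247 in HADA, which was lower relative to the median shared region (-1.19, limma adjusted p = 0.0211). It was -0.79 and still called without control 3, and not called without HADA 2 (limma adjusted p = 0.0841) or HADA 3 (limma adjusted p = 0.0609). Around Itgb7, 3 of 4 shared flanking regions were lower, and around Klf2, 2 of 3. Without HADA 2 or without HADA 3, only the Itgb7 region 11545 bp upstream was still called among these (limma adjusted p of 0.0490 and 0.0443). Flanking regions may belong to neighbouring genes.

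The other genes of lymphocyte traffic were taken as a list of 44 genes for adhesion, chemokines and their receptors, sphingosine 1-phosphate metabolism and cell movement. Of these, 37 had a region and 29 a shared region. Of 54 shared regions, 10 were higher, 7 lower and 37 not called (limma), with a median log2 difference of -0.02, against 8, 1 and 6 of 15 regions and 0.47 at the 9 members. Over all shared regions 18.4% were higher and 24.5% lower. Without control 3 the counts were 7 and 10, beside 19.9% and 23.4% of all shared regions in that fit, and without control 2 they were 9 and 14, beside 15.8% and 23.5%. Leaving out HADA 2 gave 3 and 6, beside 5.60% and 12%. Without HADA 1 or HADA 3 they were 5 and 6, beside 9.33% and 15.9% or 8.31% and 16.6%. Over the library background 17 of the 54 were higher and 6 lower, beside 32.2% and 17.6% of all shared regions. Spns2, the exporter of sphingosine 1-phosphate, was higher at a region inside the gene by 1.29 ± 0.21 (limma adjusted p = 0.00628). Foxo1, which drives Klf2 and Ccr7 in T cells, was higher at its start by 0.97 ± 0.17 (limma adjusted p = 0.00650), with the sign turned on the fold ranks (-0.11). Cd69, which removes S1PR1 from the cell surface, was higher at its start by 0.85 ± 0.20 (limma adjusted p = 0.0112), a call that was lost without HADA 2 (0.80, limma adjusted p = 0.0603).

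Itgb2, the beta subunit of the leukocyte integrins, was lower at a region inside the gene, with a log2 difference of -1.64 ± 0.29 (limma adjusted p = 0.00650). Rap1b, a small GTPase of integrin activation, differed by -2.08 ± 0.33 at a region beside 1 of its annotated starts (limma adjusted p = 0.00628), while its tallest region, at another start, differed by -0.36 (limma adjusted p = 0.127). For Fut7, which makes carbohydrate ligands for leukocyte rolling, the difference was -1.34 ± 0.27 (limma adjusted p = 0.00792). Dock2, a regulator of Rac in migrating leukocytes, had a lower region (-1.45) and a higher one (0.70), and so did the hyaluronan receptor Cd44 (-1.27 at its start and 0.54 in the gene), with limma adjusted p-values of 0.00641, 0.0194, 0.0101 and 0.0312. The sign of the Cd44 start turned on the fold ranks, to 0.21, and the higher regions of Dock2 and Cd44 lost their calls without any 1 of the HADA libraries, that of Cd44 also without control 3, where the Dock2 region was at 0.45 and still called.

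Marker genes of blood cell types were read in the same libraries, since lymphocytes and neutrophils both carry members of the set. For 11 B cell genes the summed pileup over background was 660, 391 and 69.4 in control libraries against 1815, 1865 and 1791 in HADA, and all 8 shared regions were higher (median log2 difference 1.91). In control 3 only 6 of the 11 had a peak, and Cd79a, Cd22, Blk, Cr2 and Fcer2a had none. For 12 T cell genes the sum was 658, 499 and 526 against 966, 1005 and 900, and Cd8a had no peak in 5 libraries. Of 18 shared T cell regions 4 were higher and 2 lower (median 0.14). The share over all shared regions, to be set beside the counts of each list, was 18.4% higher and 24.5% lower. For 10 neutrophil genes the sum was 517, 327 and 891 against 302, 219 and 155, all 8 shared regions were lower (median -1.65), and of the defining genes, Camp had no peak in any library and Ly6g had one in control 3 alone. The B cell, T cell and neutrophil sums did not overlap between groups on this scale. Measuring over the library background adds 0.51 (log2) to the HADA minus control difference of every gene sum relative to the median gene. This holds for all marker sums given here, whereas the medians are relative to the median shared region and do not contain it. The study's methods call the cells leukocytes, but the study's results describe them as mononuclear cells, a fraction from which most neutrophils would have been removed.

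For 8 monocyte genes the sums overlapped, at 206 to 298 in control libraries against 187 to 246 in HADA, with 1 of 7 shared regions higher and 5 lower. For 7 NK cell genes they were 27.9 to 68.7 and 88.4 to 106 and did not overlap, but of 2 shared regions 0 were higher and 0 lower. For 6 eosinophil and basophil genes, of which Siglecf and Prg2 alone had peaks, they were 50.8 to 80.0 and 103 to 136. Of the 3 shared regions of this list, however, 1 was higher and 1 lower, with a median log2 difference of -0.59. For 8 erythroid and platelet genes the sums were 83.6 to 105 and 191 to 226, without a peak at Hba-a1 in any library. Of 3 shared regions there, 2 were higher and 0 lower (median 0.64). Control 3, which had the lowest B cell sum, had the lowest level of the starts of Ccr7, Cxcr5 and S1pr1 and no peak at Ccr6. With the highest neutrophil sum, it had the tallest peaks at the 4 Cxcr5 regions 18636 bp or more upstream. At the region 11632 bp upstream it was the highest relative to the median shared region, at 1.00, but not in pileup, at 49. At the region 6880 bp upstream it was the lowest on both scales. The part of these cell types in the differences at the 9 genes was not tested.

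**Figure D4:**
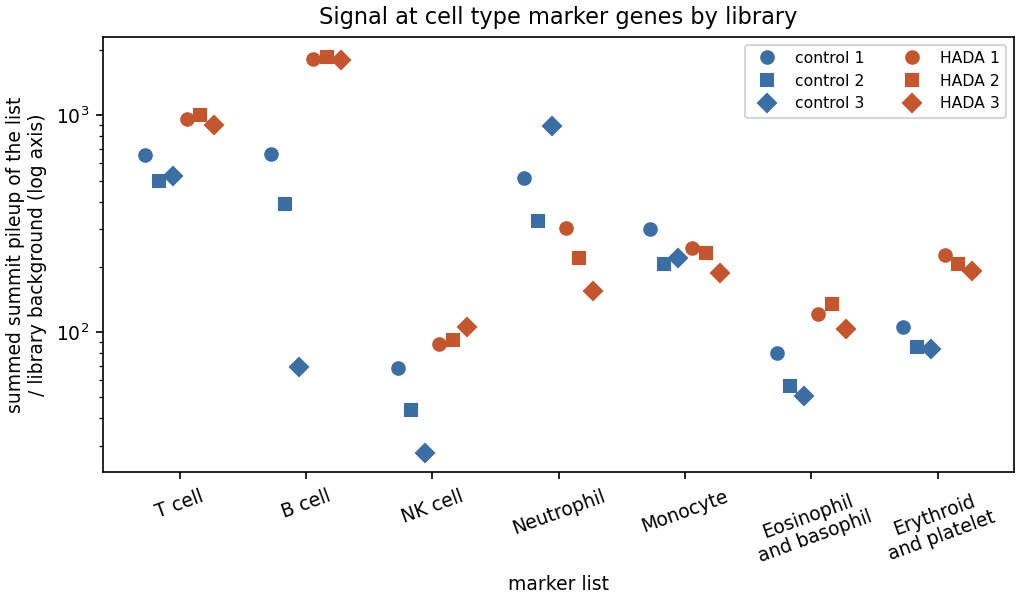
Summed summit pileup of each cell type marker list divided by the library background (log axis) for 7 lists, with 1 point per library. At B cell genes the HADA libraries lie at 1791 to 1865 and control 3 at 69.4, and at neutrophil genes control 3 is the highest at 891 and all HADA libraries are below the control libraries.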

How the data were processed

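Peak lists of 6 ATAC-seq libraries of mouse blood leukocytes were analysed, 3 per group as the labels give them. The authors checked reads with FastQC, trimmed them with Trimmomatic, aligned them with Bowtie2 to GRCm39, used Picard against duplicates, and ran MACS2 on each library by itself to call peaks. Versions, MACS2 options and any shift for the Tn5 insertion were not given in the sources used here. For each peak the deposited lists give −log10 p-value and −log10 q-value, a score and a fold enrichment over local background. Nothing states that libraries of the same number share an animal or day, and p-values measure the spread between these libraries, which may be technical in part.

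The summit pileup was solved from the deposited fold and −log10 p-value, which returned both for 100% of peaks. Total reads were not analysed here; the background pileup stands for depth, and a low peak can be missed where it is low. Peaks of the 21 main chromosomes sharing 1 bp were merged into regions. Annotation was GENCODE mouse M39. At most 120 peaks had identical ends in any pair of libraries, so none was a copy of another. Log2 pileups centred on the median shared region were compared with limma 3.58.1 (R 4.3.3, eBayes with trend, two-sided) and Benjamini-Hochberg adjustment at 0.05 over all shared regions, and log2 gene sums likewise. Alternatives were the rank of the fold, the pileup over the library background, a −log10 q of at least 5, equal numbers of peaks, summits within 250 bp, thinning to the lowest background, other windows and imputed values, a replicate block and the omission of each library. The procedure was tested on simulated data. The 9 genes, the lists of other traffic genes and markers, and the tests were chosen with earlier results of these data known. All regions of the 9 genes are named, and of the list of traffic genes the 5 in each direction with the smallest p-value.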

Additional observations from a re-analysis of the deposited data

How the results depend on the processing

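The 8 higher regions of 15 shared ones (limma throughout) became 2 on the fold rank, beside 7.64% of all shared regions. They became 4 of 8 with summits within 3 kb of a start only and 16 of 45 within 25 kb of the genes, beside 18.4% of all shared regions. When 1 library was left out they lay between 4 (without HADA 2, beside 5.60%) and 10 of 18 (without control 3, beside 19.9%). The 1 lower region became 0 on the fold rank, over the library background and within 3 kb, beside 5.82%, 17.6% and 24.5% of all shared regions. Within 25 kb the count was 11 of 45, beside 24.5%. With 1 library left out it ranged from 0 (without HADA 2 or HADA 3, beside 12% and 16.6%) to 2 (without control 2, beside 23.5%). At an unadjusted p under 0.05 these counts of 0 stayed 0 except without HADA 3, where it was 1. HADA-only regions numbered 4 within 25 kb, and 0 to 2 when 1 library was left out, with 2 without control 1. Control-only regions numbered 2 at a −log10 q of at least 5 and with equal numbers of peaks, 0 within 3 kb, and 1 to 2 when 1 library was left out, with 2 without HADA 1 or HADA 3. Of the gene sums, 4 were higher and 0 lower over the library background, 2 were lower within 3 kb, and leaving out a library gave 0 (without any HADA library) to 4 (without control 3) higher and 0 (without any HADA library) to 2 (without any control library) lower. The shares of all genes called in these alternative fits are not given here. The 6 called regions with imputed values were 8 over the library background, 6 with missing peaks at 1 read under the calling limit, 4 with missing peaks set lower still, and 3 to 5 when 1 library was left out, with 3 without HADA 2 or HADA 3. These counts are no test of the groups, and nothing was read from them. Each such member region had met the minimum of libraries through the group in which it was taller. Of the 54 shared regions of the traffic list, 8 were called on the fold rank in place of 17, where 7.64% of all shared regions were higher and 5.82% lower. Over the library background 23 were called, beside 32.2% and 17.6%. Leaving out 1 library, an alternative chosen after seeing the data, gave 9 (without HADA 2) to 23 (without control 2). The shares in those fits were 5.60% and 12%, and 15.8% and 23.5%. The difference in the number of peaks at the members was -1.67 with equal numbers of peaks. Signs turned for Cxcr4, at 0.28 for region and sum over the background and -0.22 to 0.062 for the region without 1 library, for Klf2, at 0.057 for region and sum over the background and 0.22 for the region on the fold rank, for the Cxcr5 sum, at 0.050 over the background, and for the Cxcr5 region 18636 bp upstream, at 0.75 on the fold rank. The turns over the background follow from that scaling, which adds 0.38 to every region and 0.51 to every sum, and the cause of the others was not tested. The S1pr4 region kept its call in all alternatives in which it had a value. With the replicate block, 7 shared regions were higher and 1 lower, beside 13.9% and 24% of all shared regions in that fit, and 2 gene sums were higher and 0 lower. The calls with imputed values, from which again nothing was read, numbered 6 with this block. Same-numbered libraries correlated at -0.08, 0.08 and -0.38, and other pairs of a control and a HADA library at -0.47 to 0.49. These few values cannot decide whether the numbers pair the libraries.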
